A study of Mus musculus with 24 samples.

Results

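Complement components and receptors were followed in bone marrow-derived macrophages (BMDMs) as 9 named genes of the 35770 listed: the C1q chains C1qa, C1qb and C1qc, the components C2, C3, Cfb and Cfp, and the receptors C3ar1 and C5ar1. They were picked by symbol, with earlier results of these data known. Shares of all genes printed beside counts of them are therefore context and no test of an excess. RNA had been sequenced from 24 libraries of primary macrophages of C57BL/6 mice grown with M-CSF, 3 in each of 8 groups. The macrophages received control media or 75% conditioned medium (CM) that LL2 cells had been kept in for 48 h, together with vehicle or 100 nM CDDO-Me for 24 h. LL2 is a Lewis lung carcinoma line of C57BL/6 origin, and CDDO-Me (bardoxolone methyl) is a synthetic oleanane triterpenoid that binds KEAP1 and activates NRF2. The medium came from LL2 cells that were wild type (WT CM), had lost KEAP1 (KEAP1 KO CM) or had lost NRF2 (NRF2 KO CM). The macrophages themselves carried neither deletion, and each knockout line may be a single clone, as the library names read. The groups are called media/vehicle, WT CM/vehicle, KEAP1 KO CM/vehicle, NRF2 KO CM/vehicle and the same names with CDDO-Me. The study describes 3 independent samples a group without saying whether they came from separate mice, so p-values measure only the spread between these samples.

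Complement is a cascade of plasma proteins that marks targets for uptake, recruits leukocytes and punctures membranes. C1q, built of A, B and C chains, starts the classical pathway on antibody or apoptotic cells, and macrophages are a main source of it. C4 and C2 form the classical C3 convertase, whereas C3 and factor B (Cfb) form the alternative one, which properdin (Cfp) stabilises. Cleavage of C3 and C5 releases the peptides C3a and C5a, which act on leukocytes through the receptors encoded by C3ar1 and C5ar1.

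All 9 genes were transcribed in all 24 libraries and all 9 passed the filter for testing. Levels are given in TPM, a relative measure of transcript number corrected for transcript length. The deposited table is titled as length-scaled TPM counts and was read as TPM because its libraries all add up to nearly the same total. If its values still grew with transcript length, levels and ratios between genes would not be corrected for it. The C1q chains were the most abundant, C1qb at 1412 to 4527 TPM, C1qc at 501 to 2681 and C1qa at 200.3 to 1455. Cfp, C3ar1 and C5ar1 lay between 20.1 and 751 TPM over all libraries. C3 ranged from 6.09 to 191 TPM, Cfb from 2.20 to 66.8 and C2 from 0.817 to 17.2. In WT CM and KEAP1 KO CM, CDDO-Me raised C2, C3, Cfb and C1qb and lowered both receptors, and in WT CM it also lowered Cfp. The calls of the C1qb rise were lost without some single libraries. In control media and NRF2 KO CM, CDDO-Me lowered C1qb and both receptors, and C2, C3 and Cfb did not pass the test there.

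**Figure D1:**
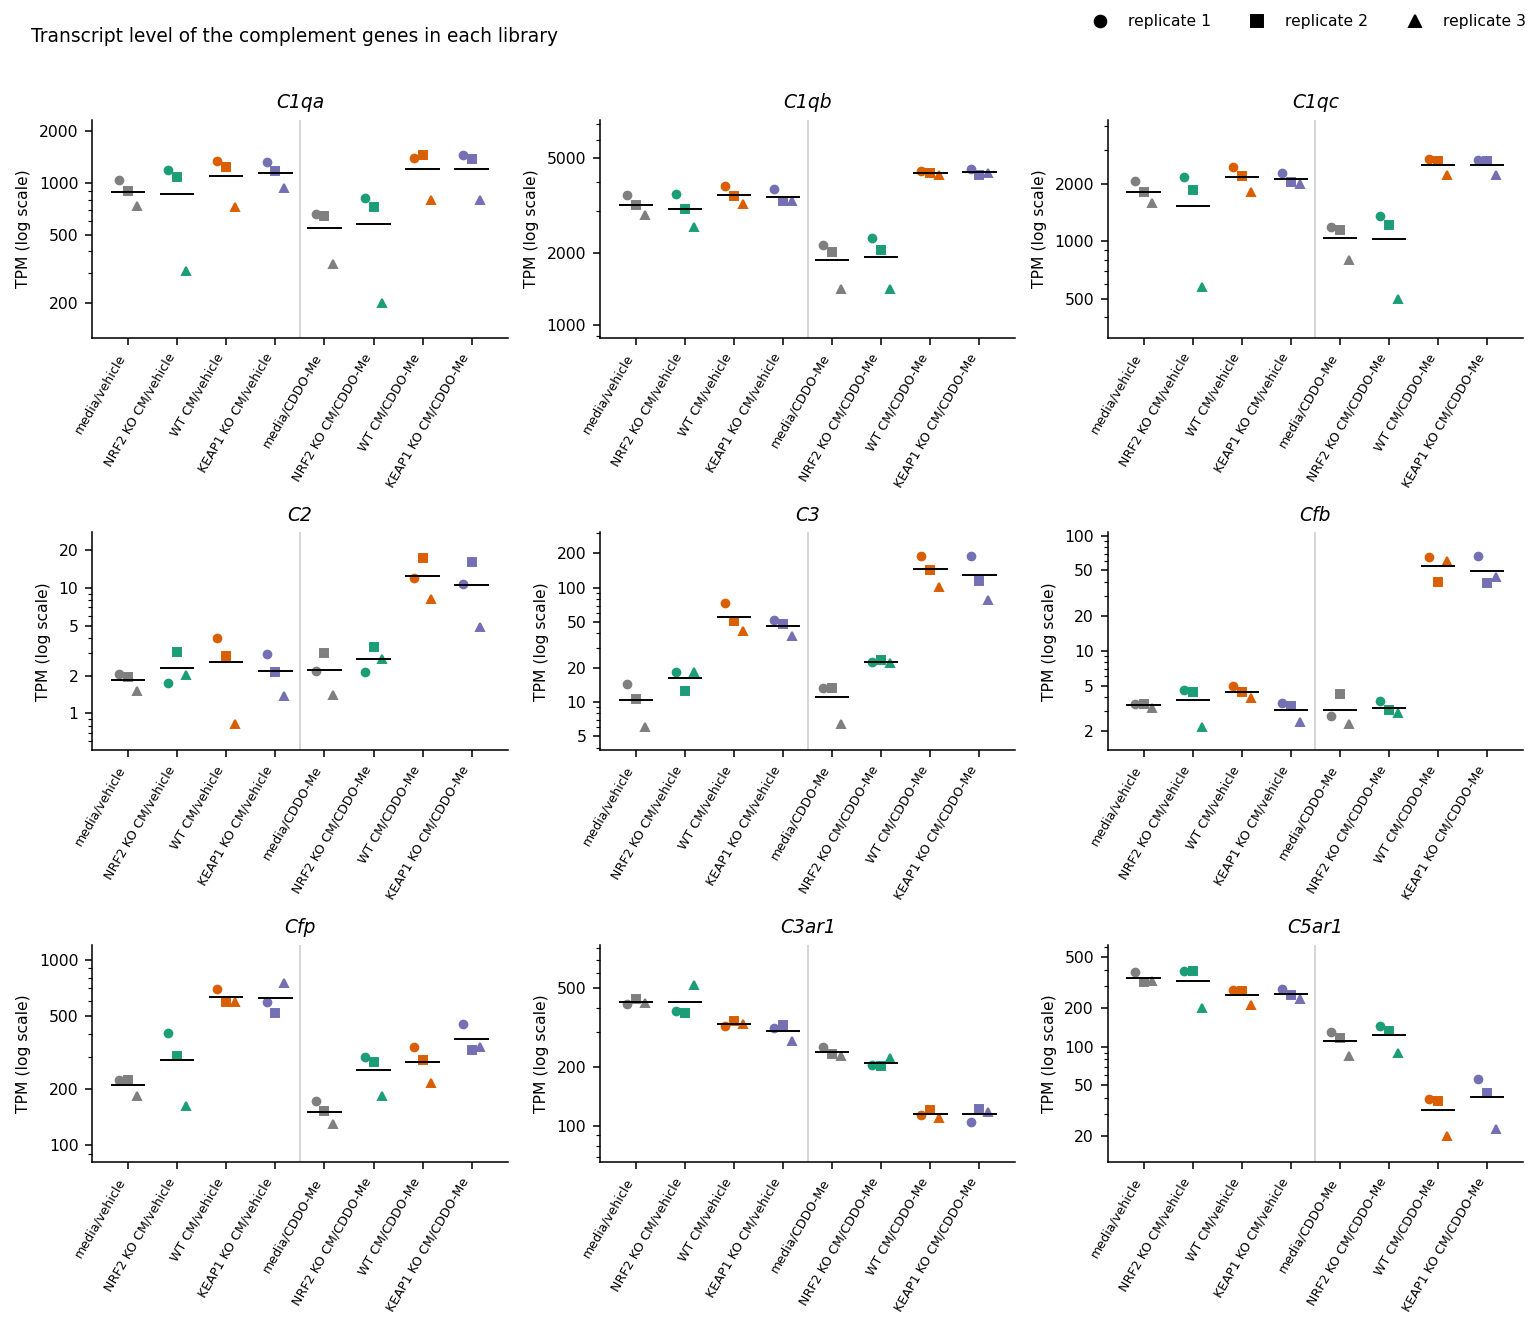
TPM on a log axis for each of the 9 complement genes, with 1 point a library, the marker shape giving the replicate number, a bar at the mean of each group and a grey line between vehicle (left) and CDDO-Me (right). Cfb sat at 38.8 to 66.8 TPM in the 6 libraries of WT and KEAP1 KO CM/CDDO-Me and at 2.20 to 4.94 in the other 18, while C3ar1 and C5ar1 were lowest in those 6.

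All 10 macrophage markers, among them Adgre1 and Csf1r, had group means above 1 TPM in every group, and their summed level ranged from 17297 to 40081 TPM over libraries. Lyz2 gave most of this sum, at 12084 to 34332 TPM. The sum differed between groups, at 17297 to 20189 TPM in WT CM/CDDO-Me and 30823 to 40081 in NRF2 KO CM/CDDO-Me. Single markers varied too, with group means of Fcgr1 from 30.8 to 479 TPM. Fibroblast markers summed to 187 to 2301 TPM and were lowest in replicate 3 of all 8 groups. By TPM, C1qa and C1qc were lowest in replicate 3 in 8 of 8 groups, C1qb, C3 and C5ar1 in 7, C2, Cfb and Cfp in 6, and C3ar1 in 3. Of all genes tested, 7.77% were lowest in replicate 3 in all 8 groups and 25.6% in 6 or more. After scaling between libraries the count was 8 for C1qa, 7 for C1qc and C5ar1, and 6 for C2 and C3. It was 5 for C1qb, Cfb and Cfp, and 2 for C3ar1. The 2 replicate 3 libraries of NRF2 KO CM had 15702 and 16299 genes above 0, against 17817 to 18993 in the other 22. Dendritic cell markers summed to 47.0 to 127 TPM in WT and KEAP1 KO CM/CDDO-Me, where the antigen-uptake receptor Clec9a gave nearly all of it, and to at most 5.70 elsewhere. Of the 7 dendritic cell markers 4 were tested, and in both media Clec9a and Xcr1 were called higher and Cd209a lower with CDDO-Me. The other 3, Flt3, Siglech and Ccr7, were too low to test, at no more than 0.239, 0.513 and 0.498 TPM. Summed neutrophil markers were higher with CDDO-Me in each medium. Group means of the collagenase Mmp8 reached 340 TPM and those of S100a8 56.8, with Ly6g at no more than 0.989 TPM in any library. Summed mast cell, lymphoid and epithelial markers were at most 15.8, 16.7 and 9.23 TPM. The part of other cells in the complement values was not tested, and in bulk RNA fewer cells of a type and less RNA per cell cannot be told apart.

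Factor B, the serine protease of the alternative C3 convertase, had the largest difference of the 9 genes between CDDO-Me and vehicle in WT CM and in KEAP1 KO CM. Cfb was at 4.94, 4.38 and 3.91 TPM in WT CM/vehicle and at 65.0, 39.7 and 60.8 in WT CM/CDDO-Me. In KEAP1 KO CM the libraries read 3.54, 3.32 and 2.39 TPM with vehicle and 66.8, 38.8 and 43.7 with CDDO-Me. Every CDDO-Me library in these media was above every library of the other 6 groups. Between vehicle and CDDO-Me, Cfb rose by 3.48 on the log2(TPM + 1) scale in WT CM (SE 0.23, adjusted p = 4.1e-10) and by 3.76 in KEAP1 KO CM (SE 0.23, adjusted p = 1.3e-10). These values come from limma with Benjamini-Hochberg adjustment over all 13661 genes tested, as do all others below. In control media Cfb was at 3.47, 3.47 and 3.19 TPM with vehicle and 2.72, 4.20 and 2.34 with CDDO-Me, and in NRF2 KO CM at 4.54, 4.38 and 2.20 against 3.64, 3.05 and 2.88. The groups overlapped in both. The effect of CDDO-Me was larger than in control media by 3.59 in WT CM (SE 0.33, adjusted p = 1e-07) and by 3.87 in KEAP1 KO CM (SE 0.33, adjusted p = 3.8e-08). Conditioned medium alone did not move it past the test, with WT CM/vehicle at 0.36 above media/vehicle (95% CI -0.13 to 0.84).

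C2, the protease of the classical and lectin C3 convertase, was also highest in WT and KEAP1 KO CM/CDDO-Me, at a lower level than Cfb. It read 4.00, 2.85 and 0.817 TPM in WT CM/vehicle against 12.1, 17.2 and 8.16 in WT CM/CDDO-Me. In KEAP1 KO CM it read 2.96, 2.15 and 1.37 TPM with vehicle against 10.7, 16.1 and 4.92 with CDDO-Me. The 6 CDDO-Me libraries of these media were again above the other 18, although the lowest, at 4.92 TPM, was close to the highest of the rest at 4.00. C2 rose by 2.12 (SE 0.35, adjusted p = 9.2e-05) in WT CM and by 1.92 (SE 0.35, adjusted p = 0.00025) in KEAP1 KO CM. Levels in control media were 2.07, 1.96 and 1.505 TPM with vehicle and 2.19, 3.04 and 1.41 with CDDO-Me, and in NRF2 KO CM they lay between 1.76 and 3.36 TPM. The effect exceeded that in control media by 1.96 (SE 0.50, adjusted p = 0.0094) in WT CM and 1.76 (SE 0.50, adjusted p = 0.02) in KEAP1 KO CM. The latter call was lost when 1 of 3 libraries was left out: KEAP1 KO CM/vehicle replicate 3 (1.58, adjusted p = 0.054), media/CDDO-Me replicate 3 (1.59, adjusted p = 0.053) or KEAP1 KO CM/CDDO-Me replicate 2 (1.44, adjusted p = 0.061).

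C2 and Cfb are neighbours. On GRCm39 C2 is annotated at chr17:35081578-35117241 and Cfb at chr17:35074852-35081559, both on the minus strand, with 18 bases between them. The files do not say how reads of the stretch that joins them were shared out, so the value of either gene can hold reads of the other. C3 lies on the same chromosome and strand at chr17:57510964-57535155. Because these 3 component genes moved together with CDDO-Me, the 250 bases before the start of each canonical transcript were read. The sequences below are from GRCm39, on the strand of the gene and 5′ to 3′, with capitals for every match on either strand of 3 G, 5 bases of any kind and 2 C, a core of NF-kB binding sites. For Cfb 2 stretches around the matches are shown, since most of its window lies in an exon of C2.

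C2, chr17:35101091-35101340: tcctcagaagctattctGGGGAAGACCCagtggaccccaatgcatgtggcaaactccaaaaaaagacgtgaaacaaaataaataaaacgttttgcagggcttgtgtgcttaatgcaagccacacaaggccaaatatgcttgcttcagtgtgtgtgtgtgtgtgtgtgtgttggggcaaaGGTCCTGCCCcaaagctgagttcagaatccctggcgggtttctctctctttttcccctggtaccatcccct

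C3, chr17:57535156-57535405: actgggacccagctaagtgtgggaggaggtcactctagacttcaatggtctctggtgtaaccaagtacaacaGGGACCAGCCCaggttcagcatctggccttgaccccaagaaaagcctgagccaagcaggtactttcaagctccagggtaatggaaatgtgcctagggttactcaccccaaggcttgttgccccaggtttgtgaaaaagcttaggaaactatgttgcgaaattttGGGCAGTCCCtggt

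Cfb, chr17:35081699-35081728, 169 to 140 bases before the start: gcaaaagctaGGGAATCCCCaggattgtgc

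Cfb, chr17:35081606-35081635, 76 to 47 bases before the start: gctttcacacGGAATTTCCCagttatgtaa

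Each of the 3 windows held this core more than once, with overlapping matches in C2 and C3. Of 21738 annotated promoters of the same length 47.9% hold it, so it sets these genes little apart. It was also present in C1qa, C1qb and Cfp and absent from C1qc, C3ar1 and C5ar1. The interferon-stimulated response element core, GAAA, 2 bases and GAAA again, was in none of the 9 windows and in 3.32% of all promoters. The palindrome TTCNNNGAA, read by STAT factors, was in C1qa alone (7.69% of promoters), its form with 4 bases between, read by STAT6, in C2 alone (5.89%), and TGACNNNGC, the core of the antioxidant response element of NRF2, in C1qb and Cfp (9.68%). These are matches of letters and say nothing on binding.

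C3, the central component of all pathways, differed with medium as well as with CDDO-Me. With vehicle it was at 14.3, 10.7 and 6.09 TPM in control media, 73.8, 51.2 and 41.9 in WT CM, 52.5, 48.3 and 37.6 in KEAP1 KO CM and 18.5, 12.45 and 18.2 in NRF2 KO CM. The libraries of WT and KEAP1 KO CM lay above those of the other 2 vehicle groups without overlap. Against media/vehicle, C3 was higher by 2.41 in WT CM (SE 0.33, adjusted p = 5.2e-05) and by 2.11 in KEAP1 KO CM (SE 0.33, adjusted p = 0.00022), while NRF2 KO CM differed by 0.66 (95% CI -0.02 to 1.34, adjusted p = 0.41). WT CM exceeded NRF2 KO CM by 1.75 (SE 0.33, adjusted p = 0.0015), and KEAP1 KO CM exceeded it by 1.44 (SE 0.33, adjusted p = 0.0074). KEAP1 KO and WT CM differed by -0.31, with an interval from -0.99 to 0.38.

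CDDO-Me took C3 to 191, 143 and 102 TPM in WT CM and to 190, 116 and 78.8 in KEAP1 KO CM, all above the vehicle libraries of the same medium. The rise was 1.49 (SE 0.33, adjusted p = 0.0014) in WT CM and 1.54 (SE 0.33, adjusted p = 0.00099) in KEAP1 KO CM. Against media/vehicle the sum of both treatments was 3.90 (adjusted p = 1.5e-08) and 3.65 (adjusted p = 4.1e-08), or 14.0 and 12.4 times the mean TPM. In control media CDDO-Me left C3 at 13.4, 13.3 and 6.46 TPM. In NRF2 KO CM it read 22.5, 23.2 and 21.8 TPM, outside the vehicle range but short of the test, at 0.49 (95% CI -0.20 to 1.17). NRF2 KO CM/CDDO-Me exceeded media/vehicle by 1.15 (SE 0.33, adjusted p = 0.028), a call lost without any 1 of 5 of the 6 libraries (0.85 to 1.20, adjusted p from 0.057 to 0.17). The effect of CDDO-Me on C3 was larger than in control media by 1.38 in WT CM (SE 0.46, adjusted p = 0.049) and 1.44 in KEAP1 KO CM (SE 0.46, adjusted p = 0.041). Each of these was lost without any 1 of 8 of the 12 libraries, the estimates then lying between 1.10 and 1.54.

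The C1q genes lie in a row on chromosome 4, C1qa at 136623223 to 136626161, C1qc at 136616466 to 136620376 and C1qb at 136606009 to 136613511. C1qb read 3518, 3191 and 2898 TPM in media/vehicle and 2164, 2017 and 1412 in media/CDDO-Me. In NRF2 KO CM it went from 3545, 3052 and 2565 TPM to 2321, 2056 and 1416. In WT CM it read 3822, 3479 and 3214 TPM with vehicle and 4426, 4349 and 4246 with CDDO-Me, and in KEAP1 KO CM 3731, 3326 and 3308 against 4527, 4246 and 4364. Vehicle and CDDO-Me did not overlap in any of the 4 media, and the direction was opposite between these pairs of media. C1qb fell by 0.78 in control media (SE 0.15, adjusted p = 0.0028) and by 0.65 in NRF2 KO CM (SE 0.15, adjusted p = 0.009). It rose by 0.44 in WT CM (SE 0.15, adjusted p = 0.036) and by 0.51 in KEAP1 KO CM (SE 0.15, adjusted p = 0.015).

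The rises of C1qb were the less firm. That in WT CM was lost without any 1 of the 6 libraries (adjusted p from 0.052 to 0.11) and without scaling between libraries (0.31, adjusted p = 0.20). That in KEAP1 KO CM was lost without any 1 of 3 of the 6 (adjusted p from 0.052 to 0.062) and without scaling (0.34, adjusted p = 0.14). The fall in NRF2 KO CM was lost without NRF2 KO CM/CDDO-Me replicate 3 (-0.49, adjusted p = 0.053). The difference between media was larger than its error: against control media, the effect on C1qb was higher by 1.22 in WT CM (SE 0.22, adjusted p = 0.0004) and by 1.30 in KEAP1 KO CM (SE 0.22, adjusted p = 0.00024). Conditioned medium alone left C1qb near its level in control media, at 0.20 above it in WT CM (95% CI -0.12 to 0.52) and 0.11 in KEAP1 KO CM (95% CI -0.21 to 0.43).

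C1qa and C1qc were more spread and did not pass the test in any comparison. C1qc was at 2454, 2195 and 1814 TPM in WT CM/vehicle and at 2681, 2616 and 2213 in WT CM/CDDO-Me, and went from 2072, 1805 and 1575 to 1189, 1141 and 799 in control media. C1qa was at 1038, 904 and 730 TPM in media/vehicle and at 662, 644 and 338 in media/CDDO-Me. Both pairs in control media were free of overlap, with differences of -0.80 (95% CI -1.51 to -0.08) for C1qc and -0.73 (95% CI -1.71 to 0.25) for C1qa. In WT CM the differences were 0.35 (95% CI -0.36 to 1.07) and 0.27 (95% CI -0.71 to 1.25). Replicate 3 of NRF2 KO CM was the lowest for both genes, C1qa reading 306 TPM with vehicle and 200.3 with CDDO-Me and C1qc 579 and 501. With replicate 3 of every group left out, the fall of C1qc in control media passed the test (-0.75, adjusted p = 0.0016), as did that of C1qa (-0.58, adjusted p = 0.0047). The effect on C1qc in WT CM then exceeded that in control media by 1.09 (adjusted p = 0.000538), and that on C1qa by 0.88 (adjusted p = 0.0015). This exclusion was added after seeing the data, in which replicate 3 had the lowest TPM of both genes in all 8 groups. A pass after such a choice is not support for a change of these genes. The replicate numbers paired the samples in NRF2 KO CM/CDDO-Me against media/vehicle, where fitting them as a block gave -0.81 for C1qa (adjusted p = 0.03) and -0.91 for C1qc (adjusted p = 0.02), neither of which passed without it.

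Properdin, the stabiliser of the alternative convertase, is encoded on chromosome X. Cfp was at 225, 224 and 185 TPM in media/vehicle, 698, 592 and 589 in WT CM/vehicle, 594, 515 and 751 in KEAP1 KO CM/vehicle and 402, 302 and 163 in NRF2 KO CM/vehicle. WT and KEAP1 KO CM were above both other vehicle groups without overlap, and NRF2 KO CM overlapped control media. Against media/vehicle, Cfp was higher by 1.63 in WT CM (SE 0.24, adjusted p = 0.00016) and 1.54 in KEAP1 KO CM (SE 0.24, adjusted p = 0.00027). The difference in NRF2 KO CM was 0.36 (95% CI -0.15 to 0.87) and did not pass. It was higher than in NRF2 KO CM by 1.27 in WT CM (SE 0.24, adjusted p = 0.0018) and 1.18 in KEAP1 KO CM (SE 0.24, adjusted p = 0.0037).

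With CDDO-Me the mean TPM of Cfp was lower in every medium, but only the fall in WT CM passed the test. In WT and KEAP1 KO CM the direction was opposite to that of C3 and Cfb. Cfp read 340, 286 and 218 TPM in WT CM/CDDO-Me and 449, 328 and 338 in KEAP1 KO CM/CDDO-Me, all under the matching vehicle libraries. The fall in WT CM was 1.04 on the log2 scale (SE 0.24, adjusted p = 0.0025). In KEAP1 KO CM the difference was -0.56 (95% CI -1.07 to -0.06, adjusted p = 0.094). In control media Cfp went from the values above to 173, 154 and 130 TPM, a difference of -0.46 (95% CI -0.97 to 0.05), and in NRF2 KO CM to 299.5, 282 and 184. The groups overlapped in NRF2 KO CM, where replicate 3 went up from 163 to 184 TPM. The effects in WT CM and control media differed by -0.58 (95% CI -1.30 to 0.14), so the fall was not shown to depend on the medium. KEAP1 KO CM/CDDO-Me was still above media/vehicle, by 0.97 (SE 0.24, adjusted p = 0.0048).

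C5ar1, the receptor through which C5a attracts and activates phagocytes, was lower with CDDO-Me in all 4 media. It read 385, 319 and 325 TPM in media/vehicle and 130, 117 and 84.4 in media/CDDO-Me. In NRF2 KO CM it went from 392, 389 and 201 TPM to 146, 133 and 89.2. In WT CM it went from 277, 275 and 212 TPM to 39.3, 37.5 and 20.1, and in KEAP1 KO CM from 283, 256 and 237 to 56.1, 43.7 and 22.7. The 12 CDDO-Me libraries were all below the 12 vehicle libraries, and those of WT and KEAP1 KO CM were below the rest. C5ar1 fell by 1.62 in control media (SE 0.28, adjusted p = 0.00092), by 1.34 in NRF2 KO CM (SE 0.28, adjusted p = 0.0035), by 2.86 in WT CM (SE 0.28, adjusted p = 1.4e-07) and by 2.55 in KEAP1 KO CM (SE 0.28, adjusted p = 6.3e-07). The fall was larger than in control media by 1.24 in WT CM (log2 difference of effects -1.24, SE 0.40, adjusted p = 0.041), a call lost without any 1 of 8 of the 12 libraries (-1.33 to -0.95). In KEAP1 KO CM the difference was -0.93 (95% CI -1.77 to -0.10, adjusted p = 0.14).

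C3ar1, the receptor of C3a, had the smallest standard error of the 9 genes, 0.13 in each comparison of 2 groups. Its libraries read 417, 440 and 423 TPM in media/vehicle and 251, 232 and 228 in media/CDDO-Me, and 384, 377 and 520 against 205, 202 and 221 in NRF2 KO CM. In WT CM they read 324, 341 and 331 TPM with vehicle and 114, 121 and 110 with CDDO-Me, and in KEAP1 KO CM 314, 325 and 271 against 105, 122 and 119. As for C5ar1, all CDDO-Me libraries were below all vehicle libraries. C3ar1 fell by 0.83 in control media (SE 0.13, adjusted p = 0.00024), 0.98 in NRF2 KO CM (SE 0.13, adjusted p = 2.6e-05), 1.39 in WT CM (SE 0.13, adjusted p = 4e-08) and 1.22 in KEAP1 KO CM (SE 0.13, adjusted p = 2.6e-07). The effect in WT CM differed from that in control media by -0.56 (SE 0.18, adjusted p = 0.036), and leaving out any 1 of 11 of the 12 libraries ended this call with little change of the estimate (-0.60 to -0.53). For KEAP1 KO CM the difference was -0.39 (95% CI -0.76 to -0.02, adjusted p = 0.17).

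With vehicle C3ar1 was lower than in control media by 0.49 on the log2 scale in KEAP1 KO CM (-0.49, SE 0.13, adjusted p = 0.017). The difference in WT CM, -0.29 (95% CI -0.56 to -0.03), did not pass. The first call was lost without media/vehicle replicate 2 (-0.48, adjusted p = 0.063), media/vehicle replicate 3 (-0.49, adjusted p = 0.052) or KEAP1 KO CM/vehicle replicate 3 (-0.44, adjusted p = 0.078). Against NRF2 KO CM/vehicle, C3ar1 in KEAP1 KO CM/vehicle differed by -0.48 (SE 0.13, adjusted p = 0.02), and this call was lost without replicate 3 of KEAP1 KO CM/vehicle (-0.42, adjusted p = 0.091) or of NRF2 KO CM/vehicle (-0.28, adjusted p = 0.067). Differences of C5ar1 between vehicle groups did not pass, at -0.36 in WT CM (95% CI -0.95 to 0.23) and -0.40 in KEAP1 KO CM (95% CI -0.99 to 0.19) against control media.

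**Figure D2:**
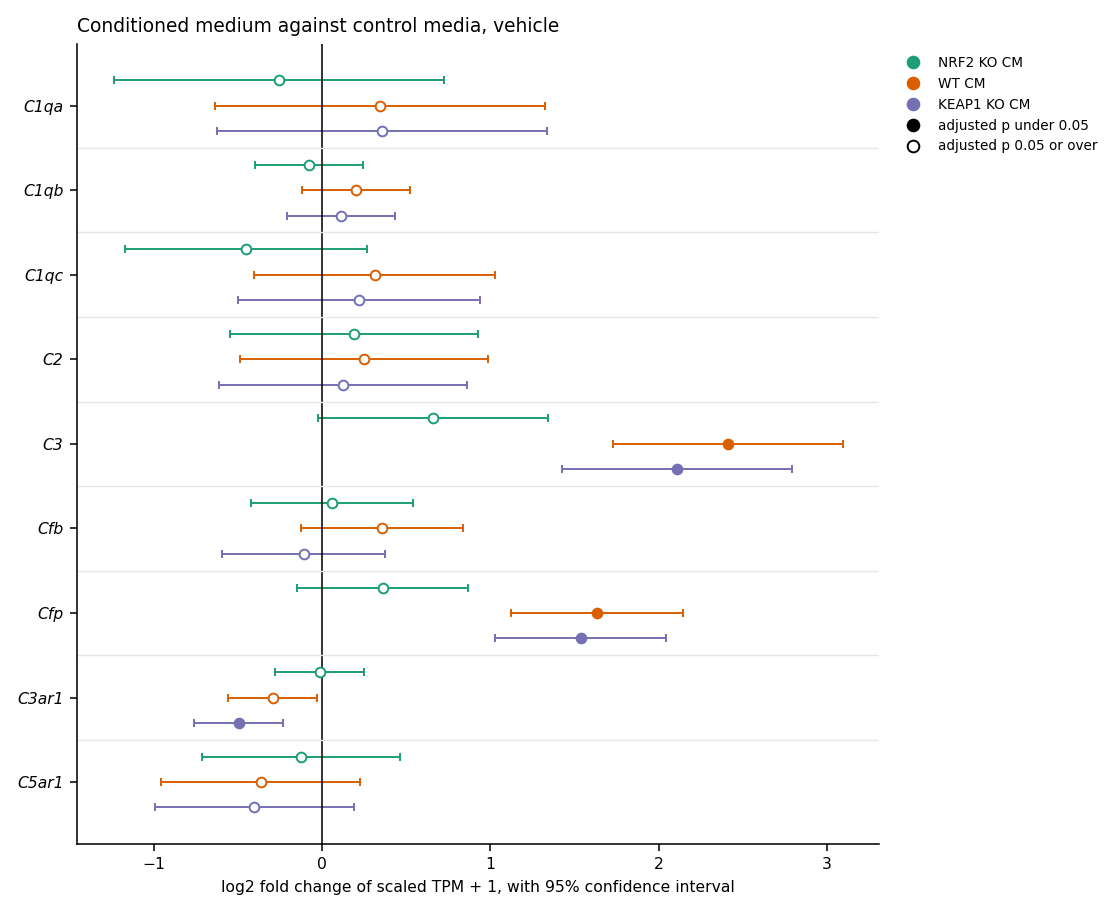
Log2 fold change of each gene in conditioned medium against control media, both with vehicle, with 95% confidence intervals, on the scale of scaled TPM + 1. Filled points have an adjusted p under 0.05: C3 and Cfp in WT CM and KEAP1 KO CM, and C3ar1 in KEAP1 KO CM.

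Counted over the 9 genes, conditioned medium with vehicle raised 2 and lowered none in WT CM, where 7.23% of all genes tested were called in either direction. In KEAP1 KO CM it raised 2 and lowered 1 (8.06% of all genes). In NRF2 KO CM none of the 9 was called by limma and none had an unadjusted p under 0.05, beside 1 gene of all those tested (0.00732%) and 1649 at an unadjusted p under 0.05. KEAP1 KO against WT CM gave 0 calls among the 9 and 0 among all genes (0%), with 350 of all genes and none of the 9 at an unadjusted p under 0.05. With array weights, which count variable libraries less, this comparison gave 974 calls over all genes and still 0 among the 9. Against NRF2 KO CM/vehicle, 2 of the 9 were higher in WT CM (10.6% of all genes called), and 2 were higher and 1 lower in KEAP1 KO CM (9.03%). Fitted on the 2 groups alone, C3 in WT CM kept its call and Cfp lost it (1.27, adjusted p = 0.14), and KEAP1 KO CM lost all 3. Upward calls among all genes made up 60.6% in WT CM against control media and 48.2% without scaling between libraries. The median difference of the 9 genes from media/vehicle was 0.31 in WT CM, 0.12 in KEAP1 KO CM and -0.01 in NRF2 KO CM, beside medians over all genes of 0.01, 0.01 and -0.02.

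CDDO-Me changed 7 of the 9 in WT CM, 4 upward and 3 downward (27.9% of all genes called), and 6 in KEAP1 KO CM, 4 upward and 2 downward (28.8%). In control media it lowered 3 (6.02%) and in NRF2 KO CM 3 (9.61%), the same genes in both, C1qb, C3ar1 and C5ar1. The 6 genes called in KEAP1 KO CM were all among the 7 called in WT CM, Cfp being the remaining one. These pairs of comparisons do not share libraries, but they share 1 estimate of the spread for each gene. Same-numbered replicates of WT and KEAP1 KO CM also deviated together, with r of 0.15 to 0.47 with vehicle and 0.18 to 0.54 with CDDO-Me. The calls in the 2 media are therefore not independent. The 9 genes were also chosen with earlier results known, so these counts beside shares of all genes do not test an excess. Fitted on the 2 groups alone, the 3 calls in NRF2 KO CM did not pass (adjusted p from 0.11 to 0.38). Upward calls among all genes made up 51.8% in WT CM and 50.2% in KEAP1 KO CM, and 39.1% and 34.6% without scaling between libraries. Set against media/vehicle, a single group shared by the 3 comparisons, 4 genes were higher and 2 lower in WT CM/CDDO-Me (26.8%), 5 and 2 in KEAP1 KO CM/CDDO-Me (25.9%), and 1 and 3 in NRF2 KO CM/CDDO-Me (10.2%). The median effect of CDDO-Me on the 9 genes was 0.35 in WT CM, 0.41 in KEAP1 KO CM, -0.73 in control media and -0.46 in NRF2 KO CM, where the median of all genes was within 0.02 of 0.

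**Figure D3:**
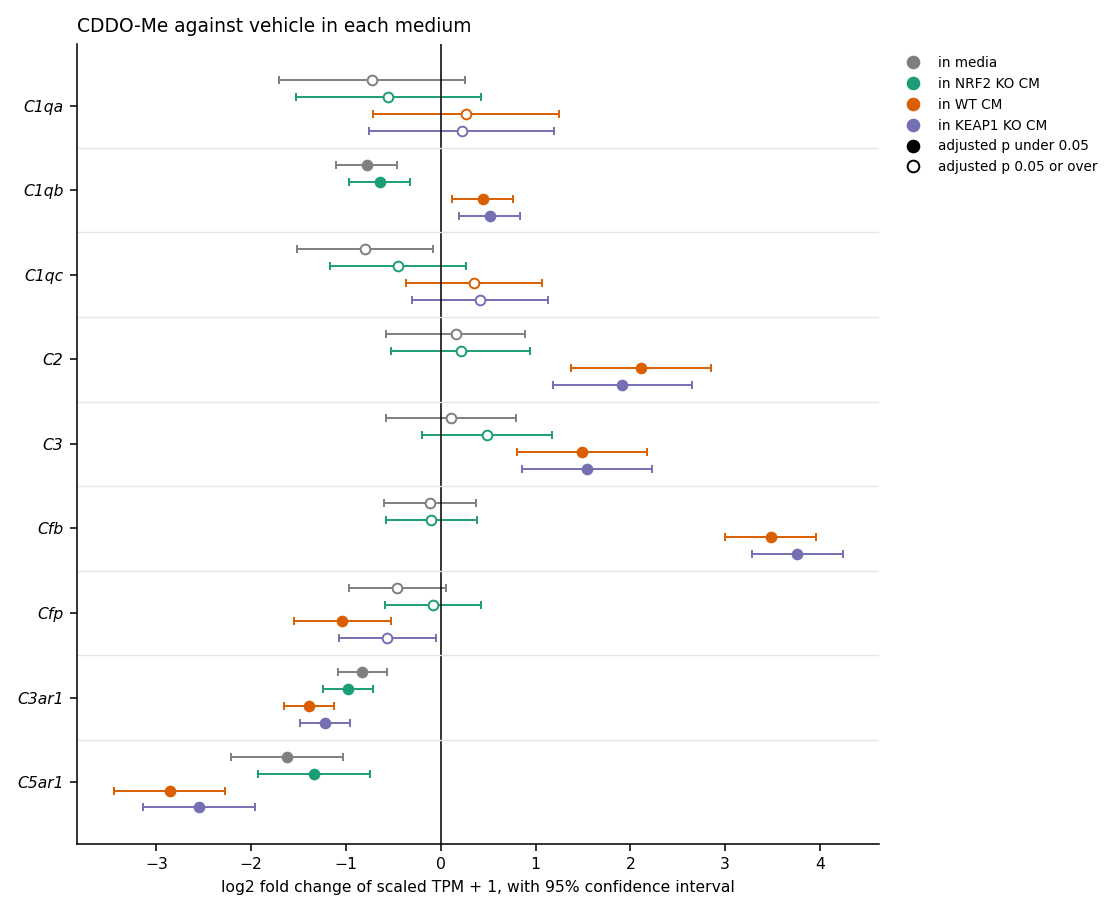
Log2 fold change of each gene with CDDO-Me against vehicle in each of the 4 media, with 95% confidence intervals, on the scale of scaled TPM + 1. Filled points have an adjusted p under 0.05. Cfb reached 3.48 and 3.76 in WT and KEAP1 KO CM, and C1qb lay on opposite sides of 0 in the 2 pairs of media.

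The test of the difference in effect asks whether CDDO-Me acted otherwise on a gene in tumor medium than in control media. In WT CM 6 of the 9 differed (C1qb, C2, C3 and Cfb higher, C3ar1 and C5ar1 lower), beside 15.3% of all genes, and in KEAP1 KO CM 4 did, C1qb, C2, C3 and Cfb, beside 14.8%. The count in WT CM was 3 without the filter on low values and 3 to 4 when a single library was left out. The calls of C3, C3ar1 and C5ar1 were lost without any 1 of 8, 11 and 8 of the 12 libraries. That in KEAP1 KO CM was 2 without KEAP1 KO CM/vehicle replicate 3, media/CDDO-Me replicate 3 or KEAP1 KO CM/CDDO-Me replicate 2. NRF2 KO CM against control media gave 0 of the 9 and 0% of all genes by limma, with 358 genes and none of the 9 at an unadjusted p under 0.05. The 95% intervals there were widest for C1qa (-1.21 to 1.56) and narrowest for C3ar1 (-0.52 to 0.22), with C1qb at -0.32 to 0.59 and Cfb at -0.67 to 0.69. KEAP1 KO against WT CM also gave 0 of the 9 and 0%, with 224 genes and none of the 9 at an unadjusted p under 0.05. There the difference was 0.28 for Cfb (95% CI -0.40 to 0.96), 0.47 for Cfp (95% CI -0.25 to 1.19), 0.17 for C3ar1 (95% CI -0.20 to 0.54) and 0.31 for C5ar1 (95% CI -0.53 to 1.14).

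Ratios of TPM within a library show which partner moved more. The mean ratio of C3 to Cfb, the 2 parts of the alternative convertase, was 12.4 in WT CM/vehicle (10.7 to 14.9 over libraries) and 15.0 in KEAP1 KO CM/vehicle (14.5 to 15.7), against 2.73 (1.67 to 3.60) and 2.54 (1.80 to 2.98) with CDDO-Me. In media/vehicle it was 3.04 (1.91 to 4.12). After these media with CDDO-Me both transcripts were above control media at a ratio that overlapped its range, whereas with vehicle C3 passed the test and Cfb did not. The mean ratio of C2 to Cfb was lowest in WT and KEAP1 KO CM/CDDO-Me, at 0.252 (0.134 to 0.435 over libraries) and 0.230 (0.112 to 0.416). Both ranges overlapped those of WT CM/vehicle (0.209 to 0.810) and NRF2 KO CM/vehicle (0.387 to 0.916). The ratio of C3ar1 to C5ar1 was 1.26 in media/vehicle, 1.32 in WT CM/vehicle, 3.88 in WT CM/CDDO-Me (2.91 to 5.50) and 3.30 in KEAP1 KO CM/CDDO-Me (1.88 to 5.24). The ratio of C1qa to C1qb, whose chains enter C1q in equal number, was 0.295 to 0.355 in replicate 1, 0.283 to 0.356 in replicate 2 and 0.119 to 0.281 in replicate 3 over the 8 groups. Replicates 1 and 2 overlapped and replicate 3 lay below both.

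**Figure D4:**
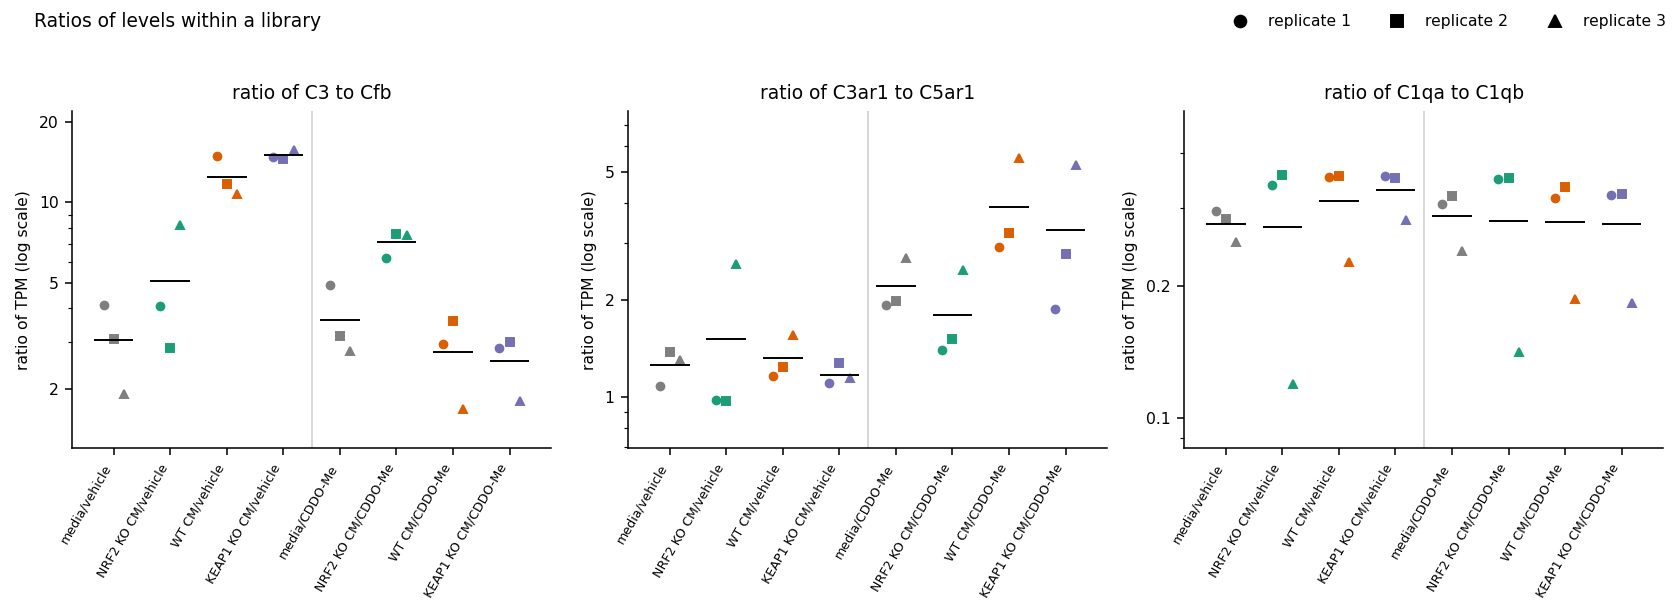
Ratios of TPM within each library, on log axes, of C3 to Cfb, C3ar1 to C5ar1 and C1qa to C1qb, with 1 point a library, the shape giving the replicate number and a bar at the mean of each group. C3 to Cfb was 10.7 to 15.7 in the 6 libraries of WT and KEAP1 KO CM/vehicle and 1.67 to 3.60 with CDDO-Me, and C1qa to C1qb was lowest in replicate 3 of each group.

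Another 49 complement genes were listed and 27 of them were expressed enough to test. CDDO-Me raised 4 and lowered 6 of these in WT CM (27.9% of all genes called) and raised 5 and lowered 7 in KEAP1 KO CM (28.8%). It raised 2 and lowered 1 in control media (6.02%) and raised 2 and lowered 3 in NRF2 KO CM (9.61%). Among the 7 tested of 15 in the classical and lectin pathways, C1ra, C1s1 and C4b were higher and Masp1 lower in both WT and KEAP1 KO CM. C4b, a gene for the C4 that joins C2 in the classical convertase, read 3.06, 2.32 and 0.801 TPM in WT CM/vehicle and 31.4, 46.6 and 29.8 in WT CM/CDDO-Me, a rise of 3.78 (SE 0.47, adjusted p = 2.7e-06), and rose by 3.72 (SE 0.47, adjusted p = 3.3e-06) in KEAP1 KO CM. C4a and C4b are near-identical, so their split is uncertain. C1ra, a protease of the C1 complex, went from 14.1, 16.5 and 7.36 TPM to 79.5, 78.9 and 39.8 in WT CM (2.43, SE 0.42, adjusted p = 0.00016). C1s1, the protease that cuts C4 and C2, went from 15.1, 14.9 and 5.52 TPM to 112, 112 and 37.7 (2.87, SE 0.69, adjusted p = 0.0031). Masp1, a protease of the lectin pathway, fell by 1.70 (SE 0.29, adjusted p = 0.00014) in WT CM and 1.85 (SE 0.29, adjusted p = 5.1e-05) in KEAP1 KO CM.

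Most of the tested classical and lectin pathway genes tracked the replicate number. C1ra, C1s1, C4b, Masp1 and Colec12 were lowest in replicate 3 of all 8 groups, as were the summed fibroblast markers and 7.77% of all genes tested. C4a was lowest in replicate 3 in 4 groups and Fcna in 2. The summed fibroblast markers were 589 to 1218 TPM in WT CM/vehicle and 229 to 650 in WT CM/CDDO-Me, and their part in these values was not tested. Serping1, the C1 inhibitor, showed the same low replicate and did not pass, reading 87.0, 106 and 23.7 TPM in WT CM/vehicle and 220, 326 and 80.2 with CDDO-Me. Of the 9 regulators tested of 16, Cd59a, which blocks the membrane attack complex, fell with CDDO-Me by 1.07 in WT CM (SE 0.20, adjusted p = 0.00025) and 1.03 in KEAP1 KO CM (SE 0.20, adjusted p = 0.00035). Cd59a shares sequence with Cd59b, whose values may mix with it. Of the terminal pathway C8g was the single gene tested of 7. Cfd, the protease that activates factor B, was at most 0.621 TPM in any library. Serping1, C8g and Cfd were named after their values were seen.

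The other receptors did not move as one. C5ar2, the second C5a receptor, read 5.04, 5.51 and 5.54 TPM in WT CM/vehicle and 1.06, 1.10 and 0.537 in WT CM/CDDO-Me, a fall of 1.70 (SE 0.15, adjusted p = 4.5e-08), and fell by 1.41 (SE 0.15, adjusted p = 5.8e-07) in KEAP1 KO CM. Its fall was larger than in control media by 1.22 on the log2 scale in WT CM (difference of effects -1.22, SE 0.22, adjusted p = 0.00045). Itgax, the CD11c chain of complement receptor 4, was at 324, 375 and 409 TPM in WT CM/vehicle and 92.9, 104 and 78.0 in WT CM/CDDO-Me, a fall of 1.87 (SE 0.19, adjusted p = 1.7e-07). Itgb2, the CD18 chain that it shares with complement receptor 3, was higher with CDDO-Me in all 4 media, by 0.80 in control media, 0.93 in NRF2 KO CM, 0.65 in WT CM and 0.83 in KEAP1 KO CM, with adjusted p of at most 0.00011. Cd93, once taken for a C1q receptor, was lower with CDDO-Me by 0.79 in control media and 1.02 in NRF2 KO CM on the log2 scale (-0.79 and -1.02, SE 0.12). It was also called lower in WT CM and KEAP1 KO CM, at -0.54 to -0.24 and -0.58 to -0.31 over the alternative settings. The call in WT CM was lost without any 1 of 2 of the 6 libraries, and that in KEAP1 KO CM without any 1 of 3 of the 6.

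**Figure D5:**
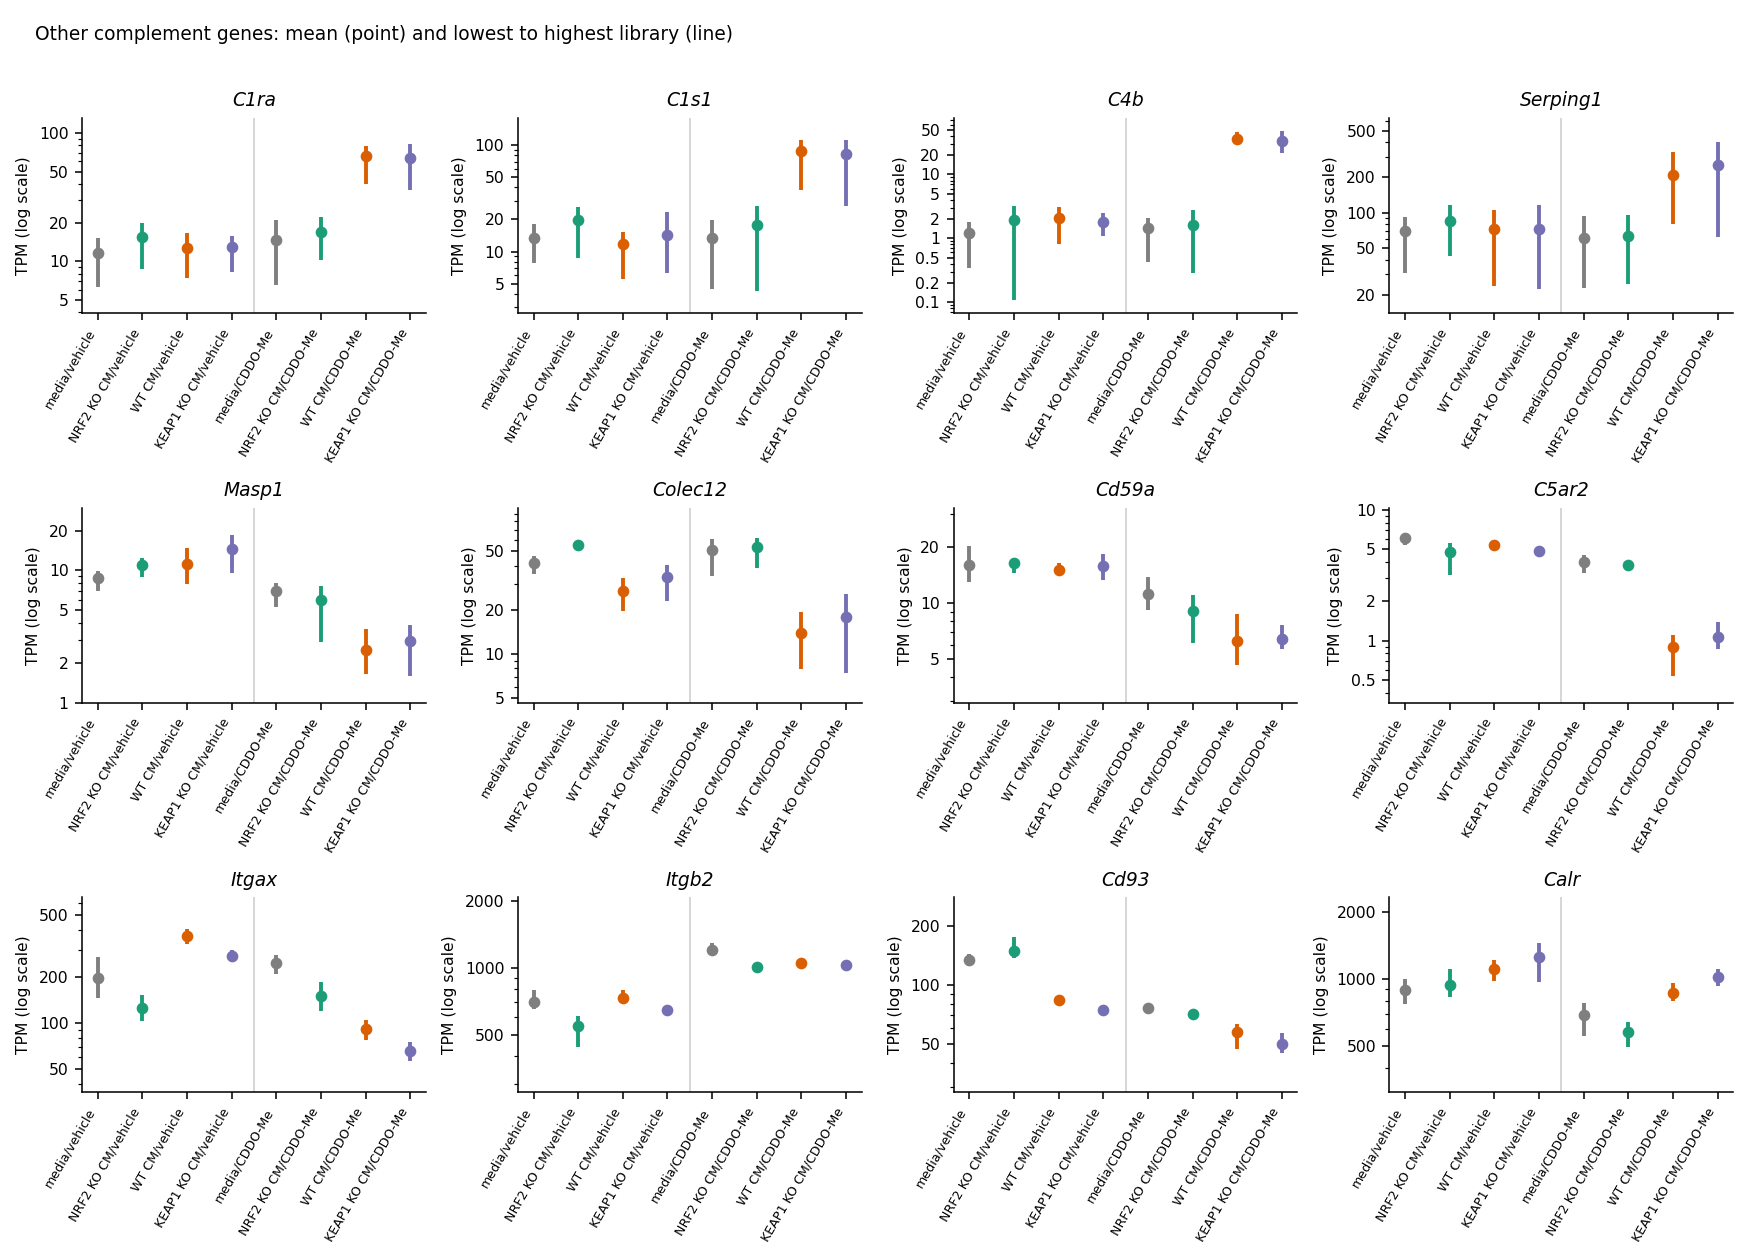
TPM on log axes of 12 other complement genes in the 8 groups, with the mean of 3 libraries as a point, a line from the lowest to the highest library and a grey line between vehicle (left) and CDDO-Me (right). C1ra, C1s1 and C4b were highest in WT and KEAP1 KO CM/CDDO-Me, where C5ar2, Itgax and Masp1 were lowest.

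The 9 genes were also set beside 10054 genes by Pearson's r of log2(TPM + 1) over the 24 libraries, as a description, since libraries of a group share their treatment. Cfb was most like Igtp, Serpina3f and Irgm1, with r of 0.987 for each. Igtp and Irgm1 are interferon-inducible GTPases. Irgm1 had group means of 839 and 827 TPM in WT and KEAP1 KO CM/CDDO-Me against 26.6 to 36.5 elsewhere. The nearest genes to C2 were C1ra (r = 0.949), Ly6c1 (0.939) and C4b (0.936), and to C3 they were Il4ra (0.960), Jak2 (0.944) and Cd40 (0.939). Il4ra, the receptor chain for IL-4 and IL-13, shared with C3 a rise in 2 steps: its mean was 59.7 TPM in media/vehicle, 121 in WT CM/vehicle and 316 in WT CM/CDDO-Me. For Cfp they were Gda (0.909), Batf (0.898) and Glb1 (0.891), for C3ar1 Blnk (0.9754), Galc (0.9742) and Pmp22 (0.9698), and for C5ar1 Dcbld2 (0.963), Slc39a8 (0.961) and Hyal1 (0.955). C1qb was nearest to Cd72 (0.957) and C1qc and C1qa both had the collagen-modifying enzyme Plod1 among their 3 (0.967 and 0.927). Among the 9 themselves r was 0.903 for C2 and Cfb, 0.827 for C3 and Cfb, 0.909 for C3ar1 and C5ar1 and 0.193 for Cfp and Cfb.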

How the data were processed

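RNA of 24 macrophage libraries, 3 in each of 8 groups set by the sample labels, was analysed. Novogene had prepared poly-A libraries, and the authors pseudo-aligned reads with kallisto to GRCm39 transcripts. They deposited gene-level values titled as length-scaled TPM counts, which were read as TPM. The deposited values sum to 999365 to 999801 a library, so the number of reads behind a value is unknown, and intervals come from the spread between libraries. A nameless row (0.0199 to 0.0635% of the total) was left out.

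TPM were scaled between libraries by an unweighted trimmed mean of M-values (trimming 30% of M and 5% of A). Genes above 1 TPM in at least 3 libraries (13661 of 35770) were fitted as log2(TPM + 1) with limma 3.58.1 in R 4.3.3, with a trend, 1 mean for each group and 16 residual degrees of freedom, in 17 comparisons. Tests were two-sided, with Benjamini-Hochberg adjustment over all genes and a threshold of 0.05. The pseudocount of 1 understates changes of low genes. Printed TPM are as deposited, without scaling. All 9 genes, the lists of related and marker genes and the promoter motifs were chosen with earlier results of these data known. All 9 genes were named, with up to 4 other complement genes per list and comparison by smallest adjusted p and the 3 genes of highest r with each. The fit was tested on simulated data with known changes in WT CM/vehicle against media/vehicle and independent noise for each library. That test does not cover replicates that deviate together or the differences in effect between media. Promoters were the 250 bases before canonical GENCODE starts. Alternatives were other scalings, filters and pseudocounts, no trend, array weights, a replicate block, the compared groups alone and leaving out each library. Leaving out replicate 3 of NRF2 KO CM or of every group, and a fibroblast covariate, were added after seeing the data.

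Samples with the same replicate number deviated together (mean r of deviations from group means 0.256, against -0.121 for other numbers). Deviations within a group cancel, so the second value largely follows from the first and is not a separate baseline. The correlation exceeded 0.1 for every number in 15 of 28 pairs of groups, among them 6 of the comparisons made here. Taken singly, 71 of 84 same-numbered pairs of libraries exceeded 0.1, and the lowest was at 0.0231. The main fit held no replicate term.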

Additional observations from a re-analysis of the deposited data

Results flagged for a closer look

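With groups of 3, single libraries were not tested as outliers. For 10 results the effect of CDDO-Me differed between a conditioned medium and control media by limma's test of that difference, on the log2(TPM + 1) scale with Benjamini-Hochberg adjustment over all genes. In WT CM the differences were 1.22 for C1qb, 1.96 for C2, 1.38 for C3, 3.59 for Cfb, -0.56 for C3ar1 and -1.24 for C5ar1. In KEAP1 KO CM they were 1.30 for C1qb, 1.76 for C2, 1.44 for C3 and 3.87 for Cfb. Both sets of differences use the same 6 control media libraries, so the values for WT and KEAP1 KO CM are not independent of each other. The differences for Cfb and C1qb in both media and for C2 in WT CM stayed past the threshold without any single library, and the rest were lost without at least 1.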

How the results depend on the processing

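Over 1118 alternative values of the 56 member results that passed the test, 1031 stayed past it, 87 did not and none changed sign. Of 1601 values of 81 results of other complement genes, 115 fell short and none changed sign. Counts of members called stayed within 1.5 times for all 17 comparisons under other scaling, no scaling, a mean of at least 5 TPM, pseudocounts of 0.1 and 5, no trend, the replicate block and without the NRF2 KO CM replicate 3 libraries. Array weights moved the count from 2 to 4 for WT CM/vehicle against media/vehicle and from 4 to 7 for the effect in KEAP1 KO CM against that in media. Without replicate 3 of every group the counts were 4 in the first, 8 in the second and 5 for CDDO-Me in control media and in NRF2 KO CM (3 each before). A fibroblast covariate moved WT against NRF2 KO CM/vehicle from 2 to 5. With the compared groups alone it fell to 1, KEAP1 KO against NRF2 KO CM/vehicle from 3 to 0, CDDO-Me in NRF2 KO CM from 3 to 0 and NRF2 KO CM/CDDO-Me against media/vehicle from 4 to 2, while CDDO-Me in control media rose to 5. Without a filter the effect in WT CM against that in media fell from 6 to 3, and without single libraries to 3 to 4, and that in KEAP1 KO CM to 2 to 4. The causes were not tested. Shares of all genes called under each setting are not set beside the counts in this section. Moves of these counts are therefore not a result about the members. Over all genes, KEAP1 KO against WT CM/vehicle gave 0 calls, and 974 with array weights. Without scaling, the median of all genes in WT CM/CDDO-Me against media/vehicle was -0.17 and 33.9% of calls were upward. The replicate block gave 6 calls for NRF2 KO CM/CDDO-Me against media/vehicle, where the numbers paired the samples, 8 for the effect in WT CM against that in media and 6 for KEAP1 KO CM. In the 5 other comparisons with paired numbers it changed no call of a member. TPM do not show depth, which limits C2 and the other low genes.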
